A study of Mus musculus with 56 samples.

Results

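Collagen I and the genes of its maturation were represented by 5 genes, each with 1 probe: Col1a1 and Col1a2, which encode the 2 kinds of chain of the collagen I triple helix, Crtap, Serpinh1 and Lox. They were taken as every probe that the platform annotation assigns to one of these symbols, and make up 5 of the 6795 named genes and 5 of the 9596 probes on the array. The genes were picked because their responses to TGF-β1 were already known from these arrays, so the responses of the 5 genes are described and not tested. Skin keratinocytes cultured from newborn mice were treated with TGF-β1 at 1 ng/ml, and each 2-colour array compared treated RNA with untreated RNA of the same kind of cells. Balb/c primary keratinocytes were hybridised on 6, 7, 6 and 5 arrays after 1, 6, 24 and 48 h, and Balb/c keratinocytes given the Ha-ras oncogene by retroviral transduction (ras cells) on 6, 8, 7 and 5 arrays. Smad3 wild type and Smad3 knockout cells, of a strain given as C57B1/SVJ, were compared at 48 h in both the primary and the ras state, on 6 arrays in all. Both members of each ras pair carried the oncogene, and only treatment with TGF-β1 differed within an array.

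Values are log2 ratios, treated over untreated, after the median of each array was subtracted, so that 1 unit is a doubling relative to the median probe. The base of the deposited logarithm is not stated and was taken as 2, on which every fold rests. The direction is likely and not stated either: it follows from the channel order, in which treated RNA is the second channel. On 49 arrays the treated RNA carried Cy5, and these gave all means. On 7 arrays the dyes were exchanged, and whether their sign had already been turned is not given in the sources used here, so their values are printed as deposited unless said otherwise. The labels name dye swaps and multiple arrays per sample and no separate cultures, so arrays that share a group could be repeat hybridisations of 1 RNA, in which case the spread and every p-value measure arrays and not mice. A ratio holds no level, so the labelled cell type could not be checked against the amount of any marker, and fewer cells of a type cannot be told apart from less RNA per cell.

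Collagen I is the main fibrillar collagen of the dermis, where fibroblasts make most of it, whereas keratinocytes of the epidermis make little. Its pro-alpha chains fold into a triple helix in the endoplasmic reticulum, where the product of Crtap takes part in 3-hydroxylation of proline and Hsp47, the product of Serpinh1, binds the folded helix as a collagen-specific chaperone. After secretion and removal of the propeptides, lysyl oxidase, the product of Lox, oxidises lysine residues and so starts the cross-linking of fibrils. TGF-β signals through receptor kinases to Smad2 and Smad3 and is a widely known inducer of collagen genes in mesenchymal cells.

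All 5 genes were above 0 on each Cy5 array of Balb/c primary cells at 48 h, and the sequences upstream of 3 of them, Col1a2, Crtap and Serpinh1, show which short motifs lie before genes that share that response. Of the 5 genes 3 were matched by symbol to a RefSeq promoter window used here. Each is the 250 bases before the RefSeq gene start in build GRCm38.p6, written along the gene's own strand, with capitals marking a match to 1 of 5 motifs on either strand: GGGCGG (the GC box), CCAAT (the CCAAT box), TATAAA (the TATA box), CAGAC (the SMAD box) and TGANTCA (the AP-1 site). The window of Col1a2 is chr6:4505368-4505617 on the plus strand, that of Crtap is chr9:114390713-114390962 on the minus strand and that of Serpinh1 is chr7:99353240-99353489 on the minus strand.
Col1a2: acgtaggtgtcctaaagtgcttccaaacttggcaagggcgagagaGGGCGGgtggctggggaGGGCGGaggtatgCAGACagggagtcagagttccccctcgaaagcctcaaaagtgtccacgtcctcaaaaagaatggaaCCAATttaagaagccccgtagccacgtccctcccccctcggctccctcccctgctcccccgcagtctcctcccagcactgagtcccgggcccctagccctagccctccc
Crtap: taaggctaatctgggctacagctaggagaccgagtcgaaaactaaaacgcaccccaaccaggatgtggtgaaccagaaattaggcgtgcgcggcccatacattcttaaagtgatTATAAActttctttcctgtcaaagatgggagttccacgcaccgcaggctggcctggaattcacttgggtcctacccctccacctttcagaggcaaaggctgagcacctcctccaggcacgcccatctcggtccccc
Serpinh1: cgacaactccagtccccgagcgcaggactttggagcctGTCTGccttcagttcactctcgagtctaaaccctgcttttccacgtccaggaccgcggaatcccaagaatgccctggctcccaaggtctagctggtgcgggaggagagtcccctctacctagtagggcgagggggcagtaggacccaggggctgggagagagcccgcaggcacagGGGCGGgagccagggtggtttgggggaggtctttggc

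The window of Col1a2 held 2 GC boxes, 1 SMAD box and 1 CCAAT box, with the SMAD box beginning at position -175 from the gene start. That of Serpinh1 held 1 GC box and 1 SMAD box, the latter on the opposite strand as GTCTG, beginning at position -212. The window of Crtap held 1 TATA box, beginning at position -136, and no other of these motifs. Such matches are common. Among 32851 RefSeq promoter windows of the same length, 42.2% held a SMAD box, 33.8% a CCAAT box, 32.7% a GC box, 12.4% a TATA box and 6.75% an AP-1 site. The G and C share was 62% for Col1a2, 63.6% for Serpinh1 and 53.6% for Crtap, against a median of 52.4% over all windows.

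Several arrays stood apart, and they bear on the values below. Primary 1 h replicate 3 and ras 24 h replicate 3 ran as near mirror images, with a correlation of -0.88 over 8905 features, whereas the median over the 1176 pairs of the 49 arrays was 0.06. Of these pairs 6 lay below -0.3, 4 of them with primary 6 h replicate 4, among them primary 6 h replicate 2 at -0.36, an array of its own group. The direction of primary 1 h replicate 3, ras 24 h replicate 3 and primary 6 h replicate 4 is therefore not settled, and the values that rest on them are also given without them or with the sign turned. Lox was the collagen I gene that differed most between the mirrored pair, at -1.28 on primary 1 h replicate 3 and 1.18 on ras 24 h replicate 3. The SD of the values ranged over all 56 arrays from 0.194 to 1.81, with ras 24 h replicate 1 the widest.

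After 48 h in primary keratinocytes the transcripts of both chains were higher in treated RNA on each of the 3 Cy5 arrays. Col1a1 gave log2 ratios of 1.50, 1.86 and 0.80 on replicates 1, 2 and 5. Col1a2 gave 1.78, 2.81 and 0.90 on the same arrays. Replicate 2 was the highest and replicate 5 the lowest for both chains, and the value of Col1a1 was below that of Col1a2 on all 3 arrays. The mean was 1.39 (SD 0.54, SE 0.58 from the fit across all features, n = 3) for Col1a1, a 2.61-fold change, and 1.83 (SD 0.95, SE 0.47, n = 3) for Col1a2, a 3.55-fold change.

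Crtap, the hydroxylation partner, had the widest spread of the 5 genes in this group. Its log2 ratios were 1.15, 4.73 and 1.02 on replicates 1, 2 and 5. Replicate 2 stood far above the other arrays, which lay close together. The mean of 2.30 (SD 2.10, SE 0.39, n = 3) rested on that array, and without it the mean was 1.09 (SD 0.09, n = 2). Serpinh1, the chaperone gene, gave 1.33, 1.01 and 0.52, with a mean of 0.95 (SD 0.41, SE 0.19, n = 3), a 1.94-fold change. It was the smallest mean of the 5 genes in primary cells at 48 h.

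Lox, the gene of the extracellular cross-linking enzyme, was the most even of the 5 across these arrays. It gave 2.11, 1.70 and 1.90, with a mean of 1.90 (SD 0.21, SE 0.26, n = 3), a 3.74-fold change. All 3 arrays lay above the highest Lox value of any other Balb/c group, which was 1.25. Over the 5 genes, 15 of 15 values on these arrays were above 0, and the median of the 5 means was 1.83, against -0.05 over all features. At an adjusted p under 0.05 in limma (Benjamini-Hochberg over all features), 4 of the 5 genes were past the threshold, Col1a1 being the exception, where 8.6% of all features were past it. The choice of the genes used this response, so nothing is read from that count.

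**Figure D1:**
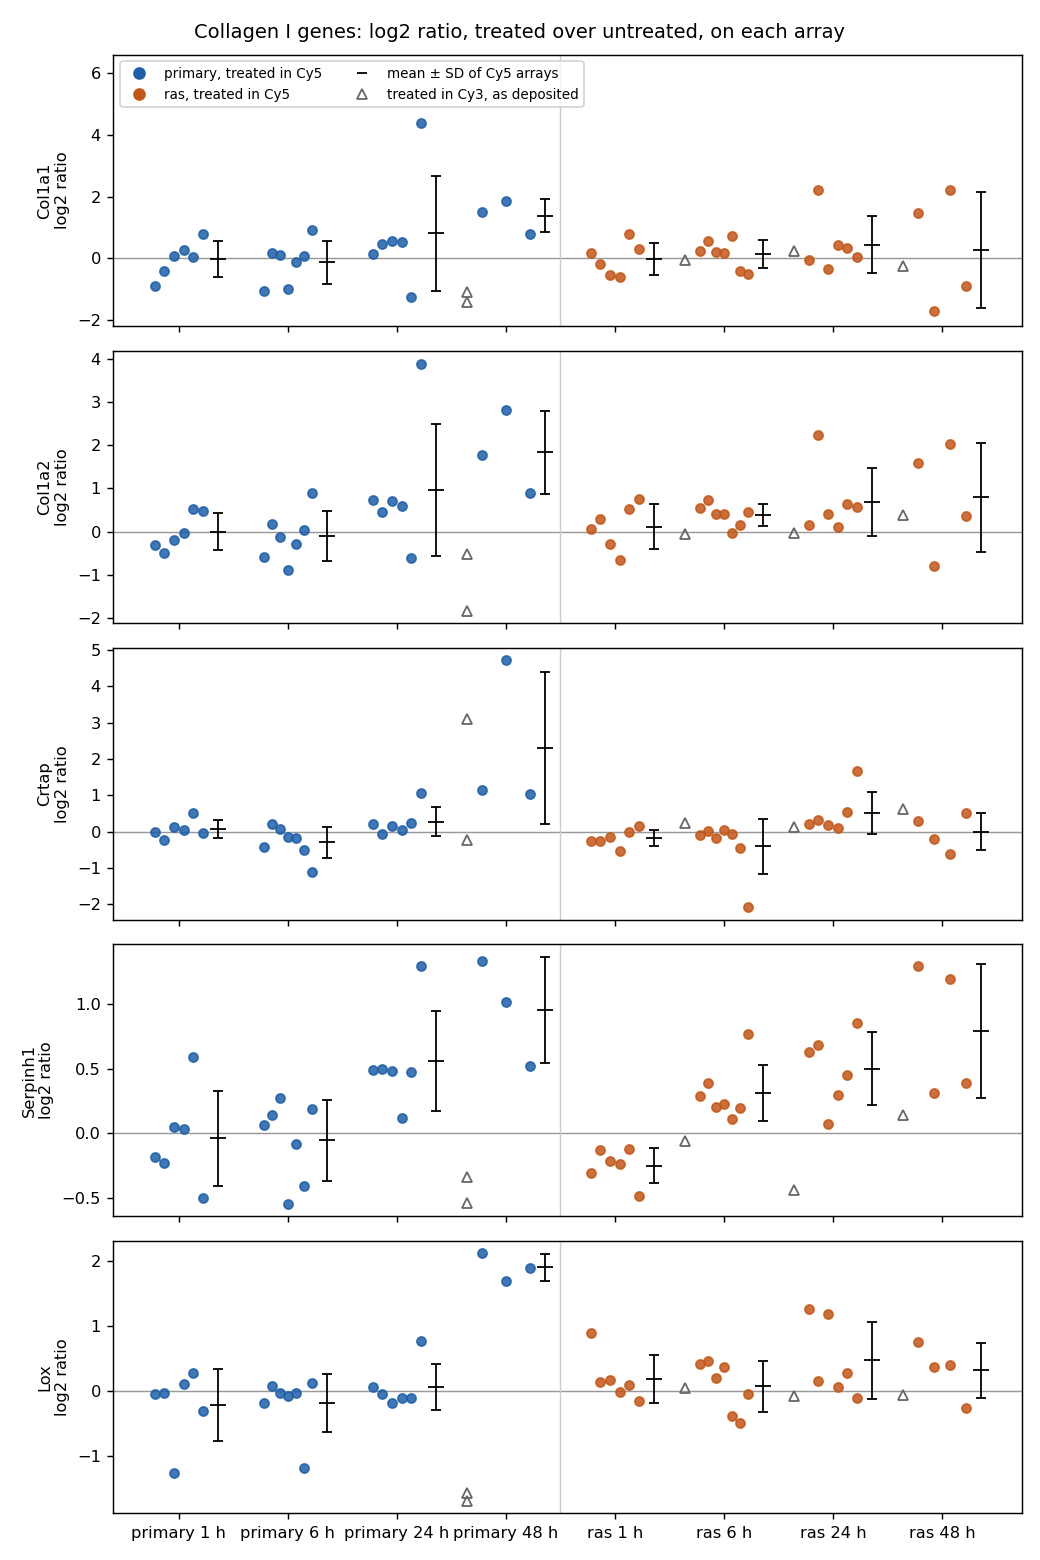
Log2 ratio (treated over untreated, array median subtracted, y axis) of each collagen I gene on every Balb/c array, by cell type and time (x axis), with circles for arrays with treated RNA in Cy5, bars for their mean ± SD and open triangles for dye-exchanged arrays as deposited. All 15 circles at primary 48 h lie above 0, Lox is tight there at 1.70 to 2.11, and 1 primary 24 h array stands highest for all 5 genes, at 4.37 for Col1a1.

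The 5 responses shared their order at the top and not below it. Over the Cy5 arrays, primary 48 h had the highest mean of the 8 Balb/c groups for each gene. With the dye-exchanged arrays entered as deposited, this did not hold for Col1a1, Col1a2 and Serpinh1, as given below. For Col1a1 the next was primary 24 h at 0.81 (SD 1.87, n = 6), and for Col1a2 primary 24 h at 0.96 (SD 1.52, n = 6), both overlapping the 48 h arrays and both resting on replicate 6, described next. For Serpinh1 it was ras 48 h at 0.79 (SD 0.52, n = 4), also overlapping. For Crtap the next was ras 24 h at 0.51 (SD 0.59, n = 6), where the highest array, 1.66, lay above 2 of the 3 primary 48 h arrays. For Lox it was ras 24 h at 0.47 (SD 0.59, n = 6), whose range did not reach that of primary 48 h. That second place rested on the mirrored replicate 3: with its sign turned the mean was 0.07, and ras 48 h at 0.31 came next. The lowest mean fell at 1 h or 6 h for every gene, in groups whose means were smaller than their SD for 4 of the 5 genes. The exception was Serpinh1, lowest at ras 1 h.

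At 24 h in primary cells the response of the chains was small on most arrays and very large on 1. Col1a1 ran from -1.24 to 4.37 with a median of 0.51 over 6 arrays. Col1a2 ran from -0.61 to 3.88 with a median of 0.64. Replicate 6 was the highest array and replicate 5 the lowest for both chains, and the other 4 arrays lay between them on the positive side. Without replicate 6 the mean fell from 0.81 to 0.10 (SD 0.77, n = 5) for Col1a1 and from 0.96 to 0.37 (SD 0.56, n = 5) for Col1a2.

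Replicate 6 was also the highest primary 24 h array for the other 3 genes. Crtap ran from -0.06 to 1.07 with a median of 0.17. Its mean of 0.27 (SD 0.41, n = 6) became 0.11 (SD 0.12, n = 5) without replicate 6. Lox ran from -0.19 to 0.76 with a median of -0.08, and 4 of 6 arrays were below 0. Its mean moved from 0.06 to -0.08 (SD 0.09, n = 5) without that array, and on the other 5 arrays Lox stayed between -0.19 and 0.06. Serpinh1 differed from these: it was above 0 on 6 of 6 arrays, from 0.12 to 1.29 with a median of 0.48. Its mean was 0.56 (SD 0.39, SE 0.14, n = 6), and 0.41 (SD 0.17, n = 5) without replicate 6. It was the only 1 of the 5 genes past the threshold at primary 24 h, where 1.36% of features were past it in limma, and this count too is descriptive.

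On primary 24 h replicate 6 the mean log2 ratio of every marker list, the keratinocyte list included, was also the highest of the group. The array had the widest spread of its group too, with an SD of 0.835 over all features. The mean over 10 measured fibroblast markers was 0.30, against a group median of 0.17, and 8 of the 10 were above 0. The mean over 6 smooth muscle and pericyte markers was 0.93, and 6 of 6 were above 0. The mean over 8 immune cell markers was 0.53, with 6 of 8 above 0, and that over 8 keratinocyte markers was 0.07. The part of these markers, or of that spread, in the high collagen values of that array was not tested.

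In ras cells at 24 h all 5 genes had means above 0, and 27 of 30 values were positive, or 24 of 30 with the sign of the mirrored replicate 3 turned and 23 of 25 without it. Without replicate 3 the means were 0.60 for Col1a1, 0.74 for Col1a2, 0.57 for Crtap, 0.58 for Serpinh1 and 0.33 for Lox, and with its sign turned 0.55, 0.55, 0.44, 0.47 and 0.07. Lox alone moved by more than 0.2, and only with the sign turned. As deposited, Col1a1 ran from -0.33 to 2.23 with a median of 0.20. Col1a2 ran from 0.11 to 2.23 with a median of 0.50 and was above 0 on 6 of 6 arrays. Replicate 2 was far above the rest for both chains and for neither Crtap nor Lox. Without it the mean of Col1a1 changed from 0.44 to 0.09 (SD 0.30, n = 5) and that of Col1a2 from 0.69 to 0.38 (SD 0.24, n = 5). The mean of the fibroblast markers on that array was -0.0032, with 4 of 10 above 0.

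Turning replicate 3 would leave Col1a2, Crtap and Serpinh1 above 0 on 5 of 6 arrays each, with that array at -0.42, -0.18 and -0.07. As deposited, Crtap was above 0 on 6 of 6 ras 24 h arrays, from 0.11 to 1.66 with a median of 0.27, and replicate 7 alone was above 1. Serpinh1 was likewise above 0 on 6 of 6 arrays, from 0.07 to 0.85 with a median of 0.54 and a mean of 0.50 (SD 0.28, SE 0.14). Serpinh1 was 1 of 5 genes past the threshold there, where 10.5% of features were past it. Lox was split: 1.25 and 1.18 on replicates 1 and 3, and -0.11 to 0.27 on the other 4. Those high arrays are the widest array of the series and the array of the mirrored pair. Without replicate 3 the SD of Lox was 0.54 (n = 5).

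At 1 h and 6 h no member was past the limma threshold in either cell type, against 0.0112% of features at primary 1 h, 0.0112% at primary 6 h, 0.0786% at ras 1 h and 1.73% at ras 6 h. The chains had means between -0.12 and 0.14 for Col1a1 and between -0.11 and 0.38 for Col1a2. For Col1a2 the largest of these was ras 6 h, where 6 of 7 arrays were above 0, from -0.02 to 0.72 with a median of 0.41. Serpinh1 in ras cells changed side between these times: it was below 0 on 6 of 6 arrays at 1 h, from -0.48 to -0.12 with a median of -0.23, and above 0 on 7 of 7 at 6 h, from 0.11 to 0.77 with a median of 0.23. The 2 ranges did not overlap, and the means were -0.25 (SD 0.13) and 0.31 (SD 0.22). In primary cells Serpinh1 was on both sides of 0 at both times, with means of -0.04 and -0.05. At primary 6 h the means without replicate 4 were 0.03 for Col1a1, 0.02 for Col1a2, -0.32 for Crtap, 0.03 for Serpinh1 and -0.21 for Lox, and with its sign turned 0.16, 0.14, -0.25, 0.10 and -0.17. Both chains and Serpinh1 thus changed side with that array, and each of these means was smaller than the SD without it. The Lox mean at primary 1 h, -0.22 (SD 0.55, n = 6), rested on the mirrored array: it was -0.0054 (SD 0.22, n = 5) without that array and 0.21 with its sign turned.

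The comparison of ras with primary cells at 48 h asks whether the oncogene alters the collagen response. In ras cells the chains ran both ways. Col1a1 gave 1.48, -1.70, 2.20 and -0.90 on replicates 1 to 4. Col1a2 gave 1.58, -0.79, 2.02 and 0.35. Replicate 1 lay within the primary range for both chains. Replicate 3 lay within it for Col1a2 and above it for Col1a1, replicate 2 lay below 0 for both, and on replicate 4 the chains differed in sign. The means were 0.27 (SD 1.87, SE 0.50, n = 4) for Col1a1 and 0.79 (SD 1.27, SE 0.41, n = 4) for Col1a2. The difference, ras minus primary, was -1.12 (SE 0.77) for Col1a1 and -1.04 (SE 0.62) for Col1a2, with overlapping ranges for both.

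Serpinh1 was the only gene of the 5 above 0 on all ras 48 h arrays, at 1.29, 0.31, 1.19 and 0.39. As for the chains, replicates 1 and 3 were the high arrays. Its mean was 0.79 (SD 0.52, SE 0.17, n = 4), and the difference from primary cells was -0.16 (SE 0.26). Replicates 1 and 3 lay within the primary range, and replicates 2 and 4 lay below its lowest value, 0.52. Serpinh1 was 1 of 5 genes past the threshold at ras 48 h, where 3.5% of features were past it.

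For Crtap and Lox the ranges of the 2 cell types did not overlap on the Cy5 arrays. Crtap gave 0.30, -0.21, -0.61 and 0.51 in ras cells, with a mean of -0.0026 (SD 0.51, n = 4), and the highest of these was below the lowest primary value, 1.02. The difference was -2.30 (SE 0.51). Lox gave 0.75, 0.36, 0.40 and -0.26, with a mean of 0.31 (SD 0.42, n = 4), and again the highest ras value lay below the lowest primary value, 1.70. The difference was -1.59 (SE 0.34). These 2 of 5 genes were past the limma threshold for the difference, where 0.202% of features were, and since the genes were chosen on these responses nothing is read from it. The share of all features without overlap was not counted, so that trait is only described. Crtap on dye-exchanged primary 48 h replicate 4, -0.23 as deposited and 0.23 turned, lay inside the ras range either way. On dye-exchanged primary 48 h replicate 3 it was 3.10 as deposited, above that range, and -3.10 turned, below it. Lox on dye-exchanged primary replicates 3 and 4 lay above the ras arrays only if turned, at 1.58 and 1.69.

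The labels give each array an experiment number of the mAdb database. Without its last 3 digits this number put the Balb/c Cy5 arrays at 48 h into blocks 39, 40 and 46, each with both cell types. Within blocks 39, 40 and 46 the difference of Lox, ras minus primary, was -1.56, -1.29 and -2.16, so it had 1 sign and a like size in all 3. For Crtap it was -1.11, -5.34 and -0.51, 1 sign with the largest value from the block that holds primary replicate 2. Col1a2 gave -1.38, -0.79 and -0.55. Col1a1 gave -1.62, 0.34 and -1.70, and Serpinh1 -0.53, 0.18 and -0.13, so for these genes block 40 had the other sign. Each block held 1 primary and 1 or 2 ras arrays with treated RNA in Cy5, which allows no test within it. Blocks 40 and 46 also hold dye-exchanged arrays, which these differences leave out. On them Lox in primary cells was -1.58 in block 40 and -1.69 in block 46 as deposited, below the ras Cy5 arrays of the same block. In ras cells it was -0.065 in block 46. The like sign of Lox thus holds for the Cy5 arrays.

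**Figure D2:**
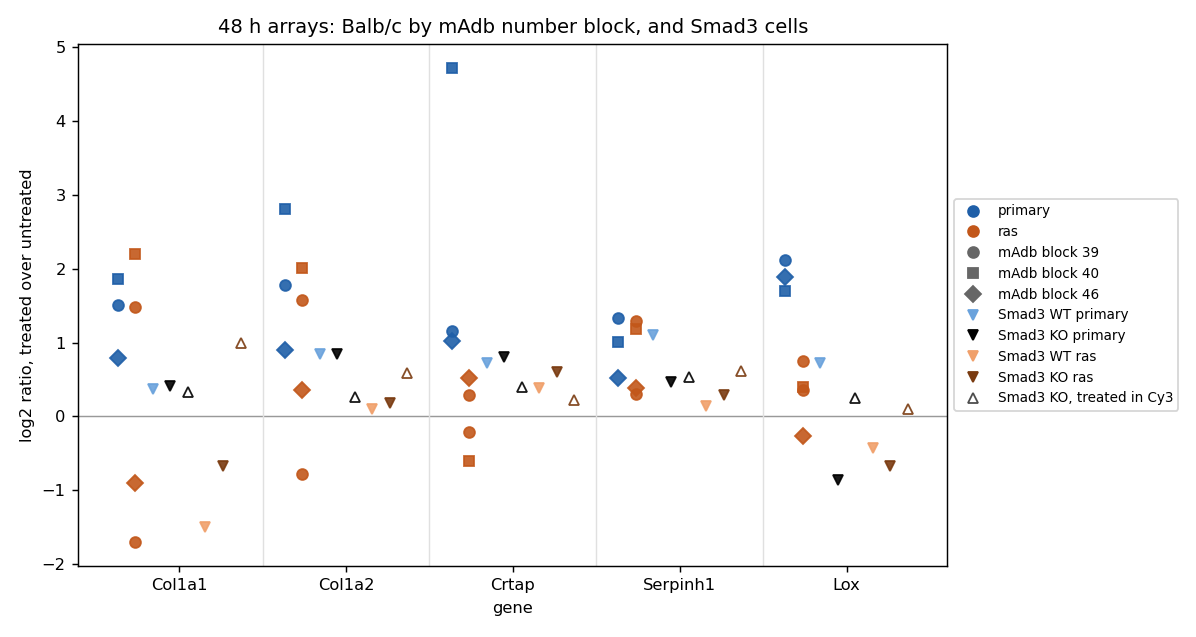
Log2 ratio (treated over untreated, y axis) of the 5 genes (x axis) on 48 h arrays. Balb/c primary and ras arrays with treated RNA in Cy5 carry the symbol of their mAdb number block. Smad3 arrays are filled triangles, and dye-exchanged Smad3 knockout arrays are open triangles. The dye-exchanged Balb/c arrays are not drawn. The primary Cy5 arrays of Lox, 1.70 to 2.11, lie clear of the ras Cy5 arrays, -0.26 to 0.75, whereas those of Serpinh1 overlap.

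The 2 chains moved together from array to array. The 49 arrays share the dye orientation, and the untreated reference of each came from its own kind of cells. Over these arrays the log2 ratios of Col1a1 and Col1a2 had a Pearson r of 0.90 and a Spearman rho of 0.79. Leaving out the 2 arrays farthest from the Col1a1 median gave r = 0.83 over 47 arrays, and the value within groups, after each Balb/c group mean was subtracted, was 0.92 over 45 arrays. The chains differed by less than 0.5 on 36 of 49 arrays, with a median absolute difference of 0.296. Both high 24 h arrays therefore appear in both chains: 4.37 with 3.88 on primary replicate 6 and 2.23 with 2.23 on ras replicate 2.

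The other genes followed the chains less closely. Serpinh1 had r = 0.70 with Col1a2 and 0.54 with Col1a1 over the 49 arrays, and 0.60 and 0.54 within groups. Crtap had r = 0.49 with Col1a2, which was 0.25 without the 2 arrays farthest from the Col1a2 median. Lox had r = 0.38 with Col1a1 and 0.46 with Col1a2, and within groups 0.19 and 0.21. These are descriptions of the arrays, and no p is given.

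**Figure D3:**
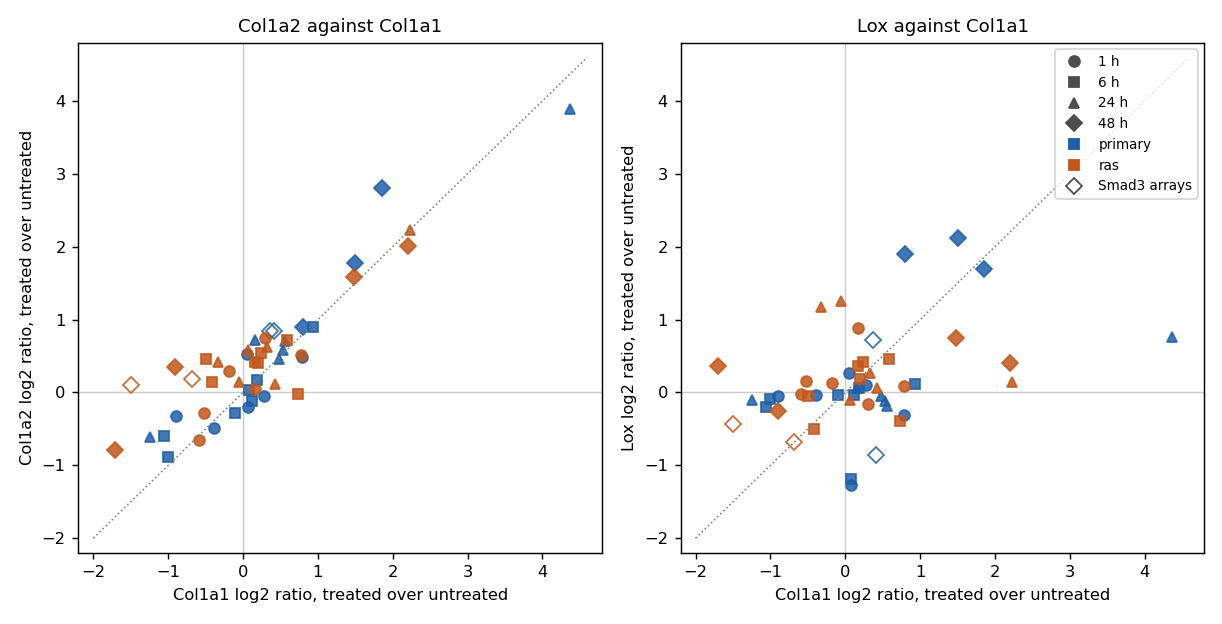
Log2 ratio (treated over untreated) of Col1a2 (left, y axis) and Lox (right, y axis) against Col1a1 (x axis) on the 49 arrays with treated RNA in Cy5, with the time as symbol, the cell type as colour and Smad3 arrays open, and the dotted line where both genes are equal. The chains lie along the line (r = 0.90), whereas Lox scatters about 0 except for the 3 primary 48 h arrays at 1.70 to 2.11 and a few single arrays.

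The genes whose pattern was most like the mean of the 5, by Spearman rho over the same 49 arrays, were Crabp1 (rho 0.84), Bgn (0.80), Sparc (0.79), Col4a2 (0.79) and S100a4 (0.73). Crabp1 encodes a retinoic acid binding protein, Bgn the proteoglycan biglycan, Sparc a collagen-binding matrix protein and Col4a2 a chain of basement membrane collagen IV. To Col1a1 alone the nearest named genes outside the 5 were Apcdd1 (0.82), Tnn (0.77) and S100a4 (0.76), with Col1a2 the second of 8904 features. To Col1a2 they were S100a4 (0.82), Cd47 (0.80) and Crabp1 (0.79), with Col1a1 the fifth. The pattern of Lox was nearest to other genes: Rb1cc1 (0.71), Tbc1d19 (0.67) and Klhl23 (0.65), while Serpinh1 ranked 237 and Col1a2 275 among 8904 features. Without the mirrored pair the rho of those 3 genes with Lox was 0.69, 0.63 and 0.61.

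Smad3 wild type and knockout cells address whether the response passes through Smad3. Each array compared RNA within 1 genotype, so the ratio of Smad3 itself checks no label, and with 1 Cy5 array a genotype and cell type there is no test. In primary cells the chains stood at close values in both genotypes: Col1a1 at 0.37 in wild type and 0.41 in knockout, and Col1a2 at 0.84 in both. Crtap stood at 0.72 in wild type and 0.80 in knockout. Serpinh1 was 1.11 in wild type and 0.46 in knockout, and Lox 0.72 and -0.86. Only Lox differed in sign between the genotypes in primary cells. The dye-exchanged knockout array gave, as deposited, 0.33 for Col1a1, 0.26 for Col1a2, 0.40 for Crtap, 0.54 for Serpinh1 and 0.26 for Lox. Its Lox value has the sign of the Cy5 knockout array only if turned, at -0.26, and the other 4 genes only as deposited. The SD over all features on the 6 Smad3 arrays ran from 0.626 to 0.954. On the wild type primary array, with an SD of 0.684, every gene but Col1a1 lay more than 1 SD from 0. On the Cy5 and the dye-exchanged knockout primary arrays, with an SD of 0.954 and 0.626, all 5 genes lay within 1 SD of 0.

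In Smad3 ras cells both Cy5 arrays had Col1a1 below 0, at -1.50 in wild type and -0.68 in knockout, while Col1a2 was 0.10 and 0.18. Crtap was 0.39 and 0.60, Serpinh1 0.15 and 0.28, and Lox -0.44 and -0.68. The sign was the same in both genotypes for each of the 5 genes. The dye-exchanged knockout array gave, as deposited, 0.99, 0.59, 0.22, 0.62 and 0.10 for Col1a1, Col1a2, Crtap, Serpinh1 and Lox, opposite in sign to its Cy5 partner for Col1a1 and Lox. With its sign turned it would instead be opposite for Col1a2, Crtap and Serpinh1. These wild type cells, of a strain other than Balb/c, gave smaller primary values than the lowest Balb/c primary 48 h array for Col1a1, Col1a2, Crtap and Lox, and a Serpinh1 value inside the Balb/c range. Strain and experiment number cannot be told apart there.

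The dye-exchanged Balb/c arrays at primary 48 h were as follows. Col1a1 was -1.42 on replicate 3 and -1.10 on replicate 4, Col1a2 -1.83 and -0.52, Serpinh1 -0.54 and -0.33, and Lox -1.58 and -1.69. These 4 genes were thus opposite in sign to the Cy5 arrays, at like size for Lox and Col1a1. Crtap was 3.10 and -0.23. Over all features, however, the 5 dye-exchanged Balb/c arrays correlated with the Cy5 mean of their group at only -0.07 to 0.13, as deposited. The 2 dye-exchanged Smad3 knockout arrays correlated with their Cy5 partners at 0.48 and 0.41, as deposited. The keratinocyte marker means of the dye-exchanged primary 48 h arrays also had the opposite sign to the Cy5 arrays: over 8 markers they were 1.55 and 0.62, with 8 of 8 above 0 on both, against -0.85 to -0.34. These values point different ways, and the direction of the dye-exchanged arrays was not settled. With the dye-exchanged arrays entered as deposited the primary 48 h means were 0.33, 0.63, 1.95, 0.40 and 0.49 for Col1a1, Col1a2, Crtap, Serpinh1 and Lox. With their sign turned and a dye term in the fit they were 1.31, 1.49, 0.67, 0.69 and 1.79. All 10 of these means are above 0, and the size of each response depends on that sign. So does the order of the groups: as deposited, Col1a1, Col1a2 and Serpinh1 were below their primary 24 h means of 0.81, 0.96 and 0.56.

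Other genes that build, modify and cleave collagen were put through the same fit, as a list of 93 of which 46 were measured. The list was made with earlier results of these data known. Its counts and p-values, here and below, are therefore descriptive, and no enrichment is read from them. In primary cells at 48 h 16 of the 46 rose and 0 fell (limma, adjusted p under 0.05 over all 8905 features, 8.6% of which were past it), with a median of 0.54 against -0.05 for all features and 34 of 46 values above 0. The 6 largest were Mmp9, a gelatinase, at 2.74 (SE 0.52, adjusted p = 0.000388), Timp1, an inhibitor of such proteases, at 2.66 (SE 0.34, adjusted p = 6.93e-07), Bgn at 2.13 (SE 0.28, adjusted p = 1.11e-06), Mmp2, a second gelatinase, at 1.83 (SE 0.20, adjusted p = 4.72e-08), Pcolce, the enhancer of procollagen C-proteinase, at 1.80 (SE 0.22, adjusted p = 3.73e-07) and Ddr2, a collagen receptor kinase, at 1.68 (SE 0.29, adjusted p = 9.17e-05). By role, 3 of 7 genes of hydroxylation and sugar transfer rose, among them the prolyl 4-hydroxylase genes P4ha1 and P4ha2 and P3h3, a relative of the enzyme that works with the Crtap product. Of folding and export genes 3 of 10 rose (Creb3l1, Sec31a and Hsp90b1), of propeptide removal genes 2 of 3 (Pcolce and Bmp1), of fibril partners 3 of 13 (Bgn, Sparc and Col5a2), of receptors 1 of 6 (Ddr2) and of collagen cleavage genes and their inhibitors 4 of 4. Of the 3 measured cross-linking genes besides Lox 0 were past the threshold. In limma 0 of them had an unadjusted p under 0.05, against 1961 of all 8905 features.

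The count at primary 48 h was 8 without replicate 1 and 9 without replicate 2, and 8 of the 16 genes, all 6 of those given with values among them, stayed past the threshold whichever of the 3 arrays was left out. With the dye-exchanged arrays as deposited it was 5, and none of the 6 genes given with values was past the threshold: Mmp9 stood at 0.74, Timp1 at 1.00, Bgn at 0.71, Mmp2 at 0.65, Pcolce at 0.62 and Ddr2 at 0.38. With the sign of those arrays turned and a dye term it was 14, those 6 included, at 1.48 to 2.47. It was 0 when the group was fitted on its 3 arrays alone.

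In ras cells at 48 h 4 of the 46 genes rose and 0 fell, where 3.5% of all features were past the threshold, with a median of 0.26 against -0.02 for all features. They were Mmp9 at 1.81 (SE 0.45, adjusted p = 0.0185), Mmp2 at 0.92 (SE 0.18, adjusted p = 0.0025), Mmp14, a membrane-bound collagenase, at 0.77 (SE 0.18, adjusted p = 0.0117) and Sec31a, a component of the vesicle coat that carries cargo out of the endoplasmic reticulum, at 0.74 (SE 0.19, adjusted p = 0.0248). All 4 also rose in primary cells at 48 h. The count ran from 0 without replicate 1 and 1 without replicate 3 to 7 without replicate 2 or 4. It was 0 with the dye-exchanged arrays turned and a dye term, and 0 on the group's own arrays. The difference between the cell types was past the threshold for 1 of 46 genes: Timp1 was lower in ras cells by a log2 difference of -2.06 (SE 0.45, adjusted p = 0.0327). That call ended without primary 48 h replicate 1 or 2 or ras 48 h replicate 2 or 4, with adjusted p up to 0.211. For the other 45 genes a lower response in ras cells was not shown, although 35 of the 46 differences were negative.

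**Figure D4:**
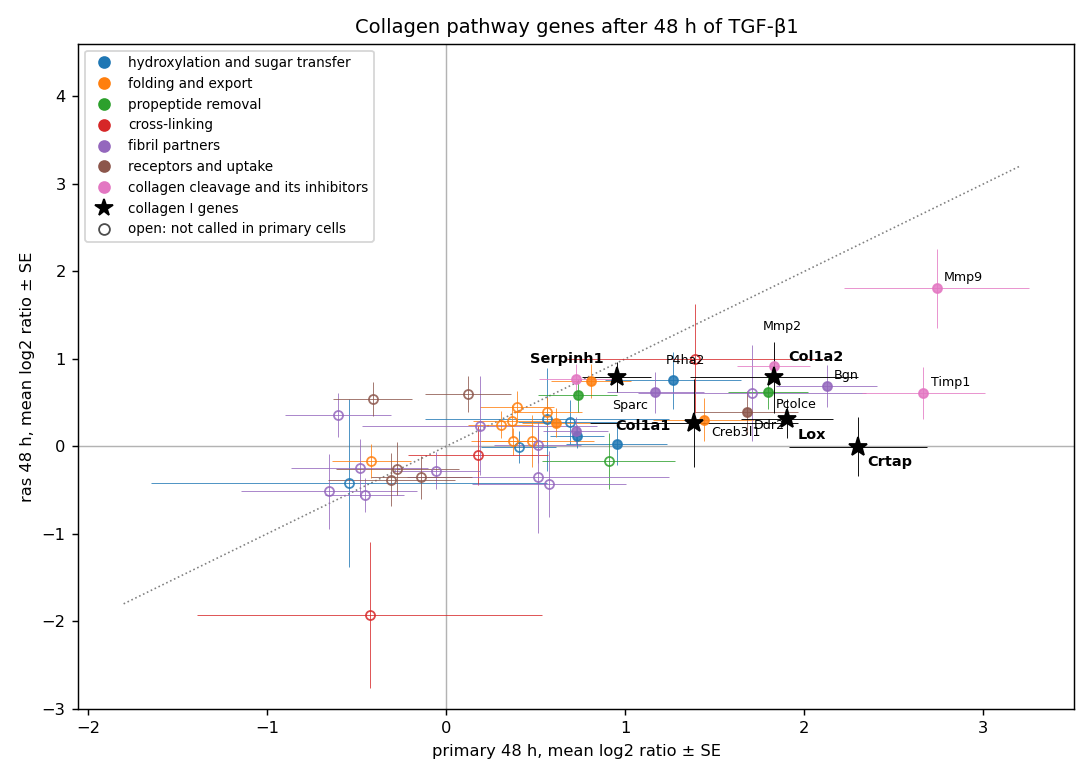
Mean log2 ratio ± SE of the fit at ras 48 h (y axis) against primary 48 h (x axis) for the 46 measured collagen pathway genes, coloured by role and filled where called in primary cells, with the 5 collagen I genes as stars and the dotted line where both cell types are equal. Most called genes lie to the right of the line, Crtap and Lox far to the right at 2.30 and 1.90, and Serpinh1 close to it.

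At 24 h the list gave 2 rises and 0 falls of 46 in primary cells, where 1.36% of features were past the threshold. They were Bgn at 0.84 (SE 0.20, adjusted p = 0.015) and Mmp2 at 0.64 (SE 0.14, adjusted p = 0.0102). Neither call remained without replicate 6, the array that stood highest for all 5 collagen I genes. In limma the call of Bgn also ended without replicate 3 (adjusted p = 0.0579) and that of Mmp2 without replicate 5 (adjusted p = 0.0653). In ras cells 6 rose and 3 fell, where 10.5% of features were past the threshold. Among the 6 largest, Mmp9 rose by 1.08 (SE 0.37, adjusted p = 0.0497), Sparc by 0.95 (SE 0.19, adjusted p = 0.00173) and Bmp1, a procollagen C-proteinase, by 0.70 (SE 0.16, adjusted p = 0.00525), while Ogn, a small leucine-rich proteoglycan, stood at -2.06 (SE 0.52, adjusted p = 0.011), Col11a2 at -0.97 (SE 0.27, adjusted p = 0.0205) and Ddr2 at -0.90 (SE 0.20, adjusted p = 0.00544). The 3 falls ended without replicate 1, the widest array, which left 3 rises and 0 falls. The count was 11 without the mirrored pair and 5 with the sign of ras 24 h replicate 3 turned, when the calls of Sparc (0.66, adjusted p = 0.0547), Bmp1 (0.43, adjusted p = 0.142) and Ddr2 (-0.69, adjusted p = 0.0502) ended. With the dye-exchanged arrays turned and a dye term, and on the group's own arrays, it was 0. Between cell types 0 of 46 differed at 24 h in limma, where 0.0449% of all features did. An unadjusted p under 0.05 was found for 4 of the 46, and for 921 of all 8905 features.

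At 6 h the list gave 0 calls in primary cells. There 5 of the 46 genes had an unadjusted p under 0.05 in limma, as did 839 of all 8905 features. In ras cells it gave 1, Mmp14 at 0.49, where 1.73% of all features were past the threshold. No leave-one-out fit kept that call. At 1 h the list gave 0 in both cell types. In limma 3 of the 46 genes in primary cells and 1 in ras cells had an unadjusted p under 0.05. Over all 8905 features these counts were 478 and 626. No early response is read from the counts at 1 h and 6 h.

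Markers of cells that make collagen I were compared beside these values, from lists also made with earlier results of these data known. Their counts are descriptive too. Past the threshold were 8.6% of all features at primary 48 h, 3.5% at ras 48 h and 0.202% for the difference. An unadjusted p under 0.05 in limma was found for 1961 and 1671 of 8905 features at primary and ras 48 h. These calls rest on the Cy5 arrays, and fits without single arrays or with dye-exchanged arrays are not given for them. Of 10 measured fibroblast markers 3 rose in primary cells at 48 h, S100a4 by 2.38 (SE 0.30), Mfap5 by 1.77 (SE 0.21) and Twist1 by 1.28 (SE 0.21), and 0 of 10 in ras cells, where 0 had an unadjusted p under 0.05 in limma. The other measured fibroblast markers were not past the threshold in primary cells. Dcn stood at 0.19 (SE 0.65), Pdgfra at 0.27 (SE 0.24), Thy1 at -0.002 (SE 0.42) and Lum at -0.66 (SE 0.49). Col6a1 stood at 0.19 (SE 0.31), Pdgfrb at 0.11 (SE 0.28) and Prrx1 at -0.18 (SE 0.25). The mean over the 10 was 0.20 to 0.76 on the primary 48 h arrays and -0.32 to 0.16 on the ras arrays. Primary replicate 2, the array with the highest Col1a1, Col1a2 and Crtap, had the lowest of the 3 fibroblast means, 0.20. It also had the highest smooth muscle and pericyte mean, 0.50 against 0.29 and 0.33, and the lowest keratinocyte mean, -0.85 against -0.34 and -0.43. The difference between cell types was past the threshold for the same 3 markers, at -2.13 for S100a4, -1.44 for Mfap5 and -1.21 for Twist1. Of 8 keratinocyte markers 3 fell at primary 48 h: Krt10 was at -1.31, Krt15 at -1.02 and Trp63 at -1.01. Of 8 immune cell markers 3 rose there, Lyz2 by 2.59, Tyrobp by 1.01 and Fcer1g by 0.77, and 1, Cd8a, was at -1.75. Of 6 smooth muscle and pericyte markers 1 rose, Cnn1 by 1.00, and of 2 melanocyte markers 0 were past the threshold, with 0 at an unadjusted p under 0.05 in limma. At ras 48 h Krt10 was at -0.96 and Lyz2 at 0.96, and no other marker of these lists was past the threshold. The part of other cell types in the collagen response was not tested.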

How the data were processed

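The deposited table holds log2 ratios for 9596 probes on 56 arrays, which the authors had processed before deposit. The upstream steps, the normalization and the direction of these log2 values were not given in the sources used here, and their base was taken to be 2 by the usual practice of such tables; array medians ran from -0.146 to 0.02, and neither spot brightness nor depth was used, so the number of arrays limits the precision. Each array's median was subtracted. Probes of a gene were averaged into 8905 features, 6795 of them named; 1627 probes had no symbol and 483 had several. The fit, with limma 3.58.1 in R 4.3.3, took group means over the 49 arrays with treated RNA in Cy5 (12 groups sharing 1 spread) with Benjamini-Hochberg adjustment, called under 0.05. It was tested on simulated data. The dye-exchanged arrays were left out of it.

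The 5 genes and all lists were chosen with earlier results of these data known. The text names the 5 genes, called pathway genes (values for at most the 6 largest per response), called markers, and the nearest genes by rho. Same-numbered arrays of the 2 cell types were not paired: over 19 pairs the correlation of deviations was -0.232 to 0.39, above 0.1 in 5. Alternatives covered centring, array spread, weights, dye, experiment number, replicate block, single arrays and probes. The arrays that ran opposite were found after seeing the data.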

Additional observations from a re-analysis of the deposited data

Results flagged for a closer look

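For the 5 genes 35 combinations of 1 gene with 1 group of 4 to 7 arrays were examined. In 12 of them an array had a gap to the rest that was wide for the range of the group. Chance gives about 1 in 20 for independent sets. The 5 genes share the same arrays, so the 12 are not separate events and no excess over chance is read from them. Primary 24 h replicate 6 was such an array for all 5 genes, at 4.37 for Col1a1, 3.88 for Col1a2, 1.07 for Crtap, 1.29 for Serpinh1 and 0.76 for Lox. Ras 24 h replicate 2 was one for both chains, at 2.23 for Col1a1 and 2.23 for Col1a2, and ras 24 h replicate 7 for Crtap at 1.66. Ras 6 h replicate 8 was one for Crtap at -2.09, where the other arrays lay between -0.47 and 0.04, and for Serpinh1 at 0.77. For Lox, primary 6 h replicate 6 stood at -1.19, where the others lay between -0.20 and 0.12, and ras 1 h replicate 1 at 0.89.

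At 48 h the difference between cell types, ras minus primary, was past the limma threshold for 5 genes of the lists, where 0.202% of all features were. It was -2.06 for Timp1, -1.63 for Lyz2, -1.44 for Mfap5, -2.13 for S100a4 and -1.21 for Twist1 (adjusted p = 0.0438 in limma). The lists were made with earlier results of these data known, so these calls are descriptive. The call of Timp1 ended in 4 of 7 fits that left out 1 array, and such fits are not given for the other genes.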

How the results depend on the processing

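The counts of called collagen pathway genes were 2, 16, 1, 9 and 4 at primary 24 h, primary 48 h, ras 6 h, ras 24 h and ras 48 h, and 0 and 1 for the differences at 24 and 48 h. Array weights gave 8 at primary 24 h, 9 at ras 6 h and 3 for each difference. Scaling arrays to 1 spread gave 6 at primary 24 h, 4 at ras 6 h, 2 at ras 48 h and 0 for the 48 h difference. Dye-exchanged arrays as deposited gave 0 at primary 24 h, 5 at primary 48 h, 0 at ras 6 h, 4 at ras 24 h, 2 at ras 48 h and 0 for the 48 h difference, and turned with a dye term 0 at primary 24 h and at ras 6, 24 and 48 h and 5 for the 48 h difference. Each group on its own arrays, with fewer samples for the spread, gave 0 at primary 24 h, primary 48 h, ras 24 h and ras 48 h and 2 at ras 6 h. The replicate block gave 7 at ras 48 h and 0 at ras 6 h, and its other counts stayed within 1.5 times. The experiment number as a random block gave 0 at ras 6 h. Leaving out the 3 wide or opposite arrays gave 3 at ras 24 h and 2 for the 48 h difference, and turning the mirrored ras 24 h array gave 5 there. No centring and the most variable probe moved no count beyond 1.5 times. Leaving out single arrays gave 0 to 2 at primary 24 h, 8 to 16 at primary 48 h, 0 at ras 6 h, 3 to 10 at ras 24 h, 0 to 7 at ras 48 h and 0 to 3 for the 48 h difference. Where the construction does not show it, the cause was not tested.

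Of 765 values of the 5 genes under these alternatives 750 moved by less than 1 SD between arrays and 15 by more, and 50 differed in sign, each where the mean was not past the threshold. Leaving out 1 array cannot move a group mean by as much as 1 SD of its arrays. For those fits the outcome was fixed, so the count of 750 does not measure stability. Crtap at primary 48 h, 2.30 (SD 2.10) with all arrays and 1.09 without replicate 2, is among the values counted as moving less.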
